A study of Mus musculus with 4 samples.

Results

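GABAergic_Ndnf_HPF, called Ndnf_HPF below, is 1 of 67 cell types to which the authors assigned shares of each spot in 4 spatial transcriptomic sections of mouse brain, cut sagittally. A spot is a small area of tissue that can hold several cells, and it was counted as an Ndnf_HPF spot when its deposited share of the type was above 0. This rule took 400 of 14809 spots, which is 2.70% of them. They comprised 70 spots in the ketamine-treated susceptible section, 66 in the susceptible section, 172 in the resilient section and 92 in the control section. Each section stood for 1 group, so there were no replicates and no test between groups was possible.

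All mice were wild type (WT) on a C57 background. The ketamine-treated susceptible mouse was picked as susceptible by a social interaction test after chronic social defeat stress (CSDS, repeated defeat by an aggressive mouse) and received 10 mg/kg ketamine intraperitoneally, with its brain taken 7 days later. The susceptible and the resilient mouse were sorted by the same test after CSDS and received saline, as did the control mouse. Age, sex and what the control mouse went through before the injection were not given in the labels. The tables gave cell type shares and a cluster number per spot, so total counts per spot and sequencing depth are unknown. The 4 sections shared 2503 spot barcodes, which mark places on the array rather than the same tissue, and no barcode held Ndnf_HPF in all 4.

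Interneurons of the cortex and hippocampus that express Ndnf (neuron-derived neurotrophic factor) are largely neurogliaform cells. These release GABA as a diffuse cloud around dense axons and slowly inhibit the outer dendrites of pyramidal neurons. In the hippocampus they are best known from stratum lacunosum-moleculare, the layer where entorhinal and thalamic fibres reach CA1, and HPF is the usual abbreviation for the hippocampal formation. No gene was measured in the deposited tables, so Ndnf, Reln, Npy, Lamp5, Gad1 and Gad2, which would check the identity of the cells, could not be examined. The name could be checked only against where the spots lay and which other types they held.

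The hippocampal spots held no Ndnf_HPF. Cluster 10 was led by astrocytes (mean share over 4 sections 31.4%), dentate gyrus granule neurons (DG, 21.8%) and CA1 pyramidal neurons (18.1%), with CA3 at 5.92% and CA2_IG_FC at 4.07%. It had 123 spots in the ketamine-treated, 147 in the susceptible, 191 in the resilient and 173 in the control section, and 0 of these 634 spots carried the type. A count of 0 allows up to 0.473% of the 634 spots, against 2.82% of the 14175 spots of all other clusters (exact Clopper-Pearson 95% interval 2.56 to 3.11, counting error only, as for all intervals below). Within single sections, 0 spots allowed up to 2.44% in the ketamine-treated, 2.04% in the susceptible, 1.57% in the resilient and 1.73% in the control section. The rest of the section was at 2.09% in the ketamine-treated, 2.00% in the susceptible, 4.34% in the resilient and 2.58% in the control section. The limit was therefore below the rest in the resilient and control sections, and a difference of this size was not detectable in the ketamine-treated and susceptible sections taken alone. The difference, cluster 10 minus the rest, averaged −2.75 percentage points (SD 1.09, n = 4 sections) and was negative in 4 of 4 sections. With 0 spots in cluster 10 in every section, each difference is the rate of the rest with a minus sign. The SD therefore describes the rest. The two-sided exact sign-flip permutation test over sections gave p = 0.125, the smallest value that 4 sections allow. The zeros fixed this outcome, so the test adds nothing to the counts.

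Absence from cluster 10 was not particular to Ndnf_HPF. Of 45 types found in at least 50 spots, 8 had no spot in cluster 10 (17.8%), and these included the interneuron types Sst_Chodl and Sst. Other GABAergic types did occur there: 45 of the 634 cluster 10 spots held at least 1 of them. Sncg, an interneuron type named for gamma-synuclein, was in 13, Lamp5_Lhx6 in 10, Meis2 in 10 and Pvalb in 9.

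The count was also 0 when spots were taken by label. CA1, CA2_IG_FC, CA3 or DG was present in 572 spots of all clusters, and 0 of these held Ndnf_HPF, which allows up to 0.524%. By section the count was 0 of 98 in the ketamine-treated, 0 of 136 in the susceptible, 0 of 179 in the resilient and 0 of 159 in the control section. Of the 572 spots, 439 were in cluster 10, so only the 133 outside it add to the count above. The level expected in Ndnf_HPF spots from the other spots of the same clusters was also low. It was 0.191% for CA1, 0.0258% for CA2_IG_FC, 0.273% for CA3 and 0.0464% for DG (means of 4 sections). Whether the absence depends on the cluster boundaries was therefore not settled. The subicular types, which belong to the output region next to CA1, gave a few joint spots. NP_SUB, near-projecting subicular neurons, was in 13 Ndnf_HPF spots (3.25%, against 3.19% of other spots) and SUB in 1. CA1_ProS, which also names CA1 but was not among the labels counted above, was in 1. CT_SUB, ProS, SUB_ProS and L2_IT_ProS were in none. L6b_RHP was in 6 Ndnf_HPF spots and L6_IT_ENTl, an entorhinal type, in 3. More frequent types with ENT in their names were each lower than in other spots in 4 of 4 sections. L2_3_IT_ENTl shared 1 of its 460 spots, L5_IT_TPE_ENT 4 of 418, L2_IT_ENTl 2 of 252, L4_5_IT_TPE_ENT 17 of 1867 and L6b_CT_ENT 0 of 148. Against the level expected from the same clusters the direction was mixed. L4_5_IT_TPE_ENT was at 3.59% against 2.87% and L2_IT_ENTl at 0.736% against 0.559%. L5_IT_TPE_ENT was at 0.581% against 0.726%, L2_3_IT_ENTl at 0.272% against 0.424% and L6b_CT_ENT at 0 against 0.160%. Of the rarer types, L2_IT_ENTm shared 2 of 63 spots, L3_IT_ENTl 2 of 15, L3_IT_ENTm 0 of 30 and L6_CT_ENTm 0 of 16. Ndnf_HPF thus shared no spot with the labels CA1, CA2_IG_FC, CA3 or DG. These are labels of principal neurons, so layers of the same fields that lack them were not covered. A place in such layers was not tested. Nor was one in the subiculum and the retrohippocampal areas, which are also counted to the hippocampal formation. The spots are described below by the column name alone.

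The type was concentrated in 5 of the 17 clusters. Clusters 1, 4, 8, 11 and 15 held 372 of the 400 spots (93.0%) in 36.9% of all spots. Cluster 15, a small cluster led by oligodendrocytes (31.3%), astrocytes (18.8%) and Ndnf_HPF itself (15.5%), had the highest rate in each section. There Ndnf_HPF was in 8 of 30 ketamine-treated spots (26.7%, interval 12.3 to 45.9), 10 of 29 susceptible spots (34.5%, 17.9 to 54.3), 23 of 79 resilient spots (29.1%, 19.4 to 40.4) and 30 of 76 control spots (39.5%, 28.4 to 51.4). These intervals overlapped between all sections. Since cluster 15 may have been formed with the expression that also gave the type, its high rate is a description.

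The cortical clusters were nearly empty of it. Clusters 2, 6 and 9, where cortical layer types took much of the share, held 3 Ndnf_HPF spots among 4525, at 0.0663% (0.0137 to 0.194). Clusters 6, 10, 12, 13 and 14 together held none in any section, 0 of 2413 spots, which allows up to 0.124%. The remaining clusters contributed few spots: 12 in cluster 3, 7 in the oligodendrocyte-dominated cluster 7, 3 in cluster 17, 2 in cluster 5 and 1 in cluster 16.

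**Figure D1:**
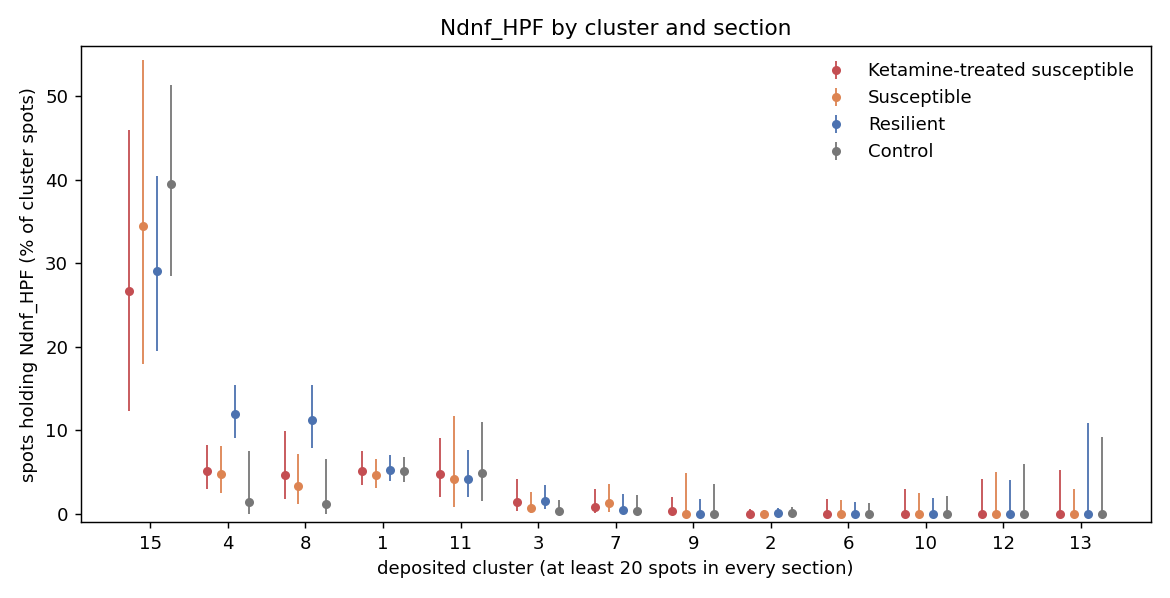
Share of the spots of each cluster that held Ndnf_HPF (percent, y axis) in 13 clusters of 20 spots or more per section (x axis, ordered by mean rate). Points are the ketamine-treated susceptible, susceptible, resilient and control sections and bars are exact 95% intervals for counting error; cluster 15 lies between 26.7% and 39.5%, clusters 1 and 11 are level across sections, and clusters 4 and 8 are highest in the resilient section.

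In clusters 1 and 11 the rate was nearly the same in all sections. Cluster 1, of oligodendrocytes, astrocytes, L2_IT_RSPv and Pvalb, was the largest source of Ndnf_HPF spots, with 149. Its rate was 5.19% in the ketamine-treated (26 of 501), 4.63% in the susceptible (28 of 605), 5.31% in the resilient (47 of 885) and 5.17% in the control section (48 of 929). Cluster 11, of similar makeup, stood at 4.73% in the ketamine-treated, 4.17% in the susceptible, 4.22% in the resilient and 4.85% in the control section. Over both clusters the rate was 5.07% in the ketamine-treated (3.54 to 7.02), 4.58% in the susceptible (3.13 to 6.44), 5.08% in the resilient (3.87 to 6.53) and 5.14% in the control section (3.87 to 6.66), so the sections differed there by less than the counting error of any one of them.

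Clusters 4 and 8 differed between sections. Cluster 4 is led by astrocytes and Sst_Chodl, long-range projecting somatostatin neurons. Ndnf_HPF was in 5.14% of its ketamine-treated spots (16 of 311, 2.97 to 8.22), 4.72% of its susceptible spots (12 of 254), 11.97% of its resilient spots (51 of 426, 9.05 to 15.4) and 1.39% of its control spots (1 of 72, 0.0352 to 7.50). Cluster 8, an astrocyte-led cluster in which 12.9% of the share was unknown, followed the same order of values. It had 4.69% in the ketamine-treated (6 of 128), 3.35% in the susceptible (6 of 179), 11.2% in the resilient (33 of 294, 7.85 to 15.4) and 1.20% in the control section (1 of 83, 0.0305 to 6.53). Over both clusters the rate was 11.7% (9.41 to 14.2) in the resilient section. It was 5.01% (3.17 to 7.49) in the ketamine-treated, 4.16% (2.48 to 6.49) in the susceptible and 1.29% (0.157 to 4.58) in the control section. These intervals cover counting error within 1 section per group, not differences between mice. How many other types differed as much within these clusters was not counted.

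Across whole sections the resilient section had the highest rate. Ndnf_HPF was in 2.01% of ketamine-treated spots (1.57 to 2.54), 1.92% of susceptible spots (1.49 to 2.43), 4.14% of resilient spots (3.55 to 4.79) and 2.46% of control spots (1.99 to 3.01). The resilient interval overlapped with none of the others, and the other 3 overlapped with each other. With 1 section per group, such intervals do not cover differences between mice. The resilient section had 1.68 times the control rate (counting interval 1.31 to 2.15). The ketamine-treated section had 0.486 times the resilient rate (0.370 to 0.640) and the susceptible section 0.463 times (0.350 to 0.613). The ratio of the ketamine-treated to the susceptible section was 1.05 (0.753 to 1.47). The ketamine-treated section had 0.817 times the control rate (0.601 to 1.11), and the susceptible section 0.778 times (0.569 to 1.06).

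Differences of this size between sections were common among the types. Among types in at least 1% of the spots of either section, the share past 1.5-fold in either direction was 40% for the resilient over the control section (14 of 35), 38.9% for the susceptible over the resilient (14 of 36) and 37.1% for the ketamine-treated over the resilient (13 of 35). It was 38.7% for the susceptible over the control (12 of 31), 24.1% for the ketamine-treated over the control (7 of 29) and 19.4% for the ketamine-treated over the susceptible section (6 of 31). Ndnf_HPF was past 1.5-fold in the 3 comparisons that include the resilient section and in none of the other 3. With equal cluster weights the ketamine-treated to resilient ratio was 0.741 and the susceptible to resilient ratio 0.690, neither past 1.5-fold, and the resilient to control ratio was 1.59.

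Clusters 4 and 8 held a larger part of the Ndnf_HPF spots in the resilient section than in any other section. They contributed 84 of the 172 resilient Ndnf_HPF spots (48.8%), against 22 of 70 in the ketamine-treated (31.4%), 18 of 66 in the susceptible (27.3%) and 2 of 92 in the control section (2.17%). They were also larger in the resilient section, at 17.3% of its spots, against 12.6% in the ketamine-treated, 12.6% in the susceptible and 4.15% in the control section. Leaving out clusters 4 and 8, or cluster 15, was chosen after the values were seen. Taking out clusters with a high resilient rate lowers that rate by construction. Without cluster 15 the resilient to control ratio was 2.16. Without clusters 4 and 8 the type was in 1.58% of ketamine-treated spots, 1.59% of susceptible spots, 2.56% of resilient spots and 2.52% of control spots, and the resilient to control ratio became 1.02. The ketamine-treated to resilient ratio was then 0.617 and the susceptible to resilient ratio 0.623, both still past 1.5-fold, and so were the ketamine-treated to control ratio of 0.628 and the susceptible to control ratio of 0.634. Cluster 15, at 0.863% of ketamine-treated and 0.842% of susceptible spots, was smaller there than at 1.90% of resilient and 2.04% of control spots. How far these proportions follow from the plane of each section or from the treatment of each mouse cannot be told apart with 1 section per group.

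**Figure D2:**
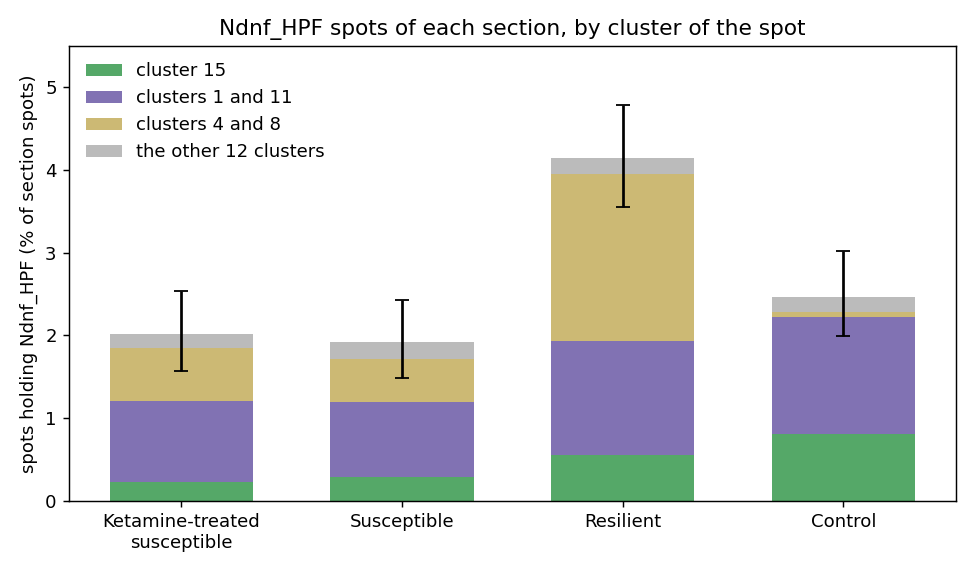
Spots holding Ndnf_HPF as a percent of all spots of the section (y axis) in the ketamine-treated susceptible, susceptible, resilient and control sections. Colours split each bar by the cluster of the spot and the line is the exact 95% interval of the total; the resilient bar reaches 4.14%, and clusters 4 and 8 give 2.02 points of it, against 0.0536 points in the control.

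Where it was present, Ndnf_HPF took a similar part of the spot in every section. The share had a median of 33.7% in the ketamine-treated (lowest 16.2%), 32.2% in the susceptible (lowest 17.8%), 36.0% in the resilient (lowest 15.6%) and 32.6% in the control section (lowest 14.4%). The smallest share kept for any type was 10.9% in the ketamine-treated, 11.1% in the susceptible, 10.1% in the resilient and 11.2% in the control section, so a smaller presence of Ndnf_HPF would not be seen. The lower and upper quartiles were 27.2% with 51.5% for ketamine-treated, 27.6% with 47.2% for susceptible, 26.5% with 49.4% for resilient and 25.1% with 45.6% for control spots, so the values overlapped widely. In 42 spots (10.5%) the type filled the whole spot. These were 12 of 70 in the ketamine-treated (17.1%, 9.18 to 28.03), 6 of 66 in the susceptible (9.09%, 3.41 to 18.7), 18 of 172 in the resilient (10.5%, 6.32 to 16.03) and 6 of 92 in the control section (6.52%, 2.43 to 13.7). Apart from these whole spots, the highest share was 65.0% in the ketamine-treated, 59.9% in the susceptible, 66.6% in the resilient and 70.8% in the control section.

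The type led 134 of its 400 spots (33.5%), while astrocytes led 84, Oligo 65, L2_IT_RSPv 30, Sst_Chodl 25 and Pvalb 21. It led 27 spots in the ketamine-treated (38.6% of its spots, 27.2 to 51.0), 18 in the susceptible (27.3%, 17.03 to 39.6), 63 in the resilient (36.6%, 29.4 to 44.3) and 26 in the control section (28.3%, 19.4 to 38.6). The size of the share varied more between clusters than between sections. Its median was 49.1% in cluster 8, where 13 of 46 spots were filled by it alone, and 43.4% in cluster 15. It was 35.6% in cluster 4, 29.9% in cluster 1, 29.6% in cluster 11 and 25.3% in cluster 3.

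**Figure D3:**
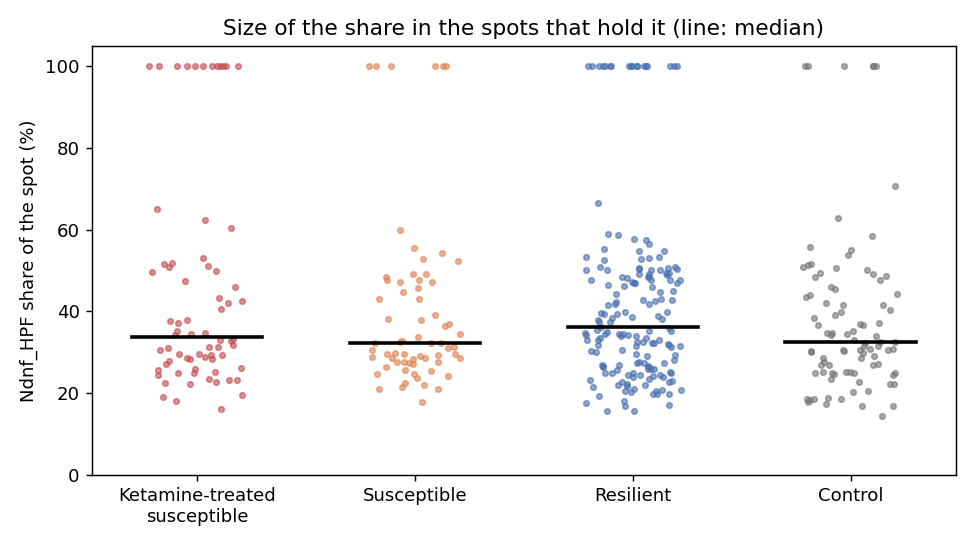
Deposited Ndnf_HPF share of each spot that held it (percent of the spot, y axis), 1 point per spot, in the ketamine-treated susceptible, susceptible, resilient and control sections, with the median as a line. Medians lie between 32.2% and 36.0%, and a separate row of 42 spots sits at 100%.

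Ndnf_HPF spots held more types than other spots, on average 2.69 against 2.16 in the ketamine-treated, 2.65 against 2.09 in the susceptible, 2.73 against 2.31 in the resilient and 2.79 against 2.24 in the control section. Choosing spots that hold a given type favours spots with many types, and all shares of a spot sum to 1, so partners compete for the room that Ndnf_HPF leaves. The 400 spots showed 132 different sets of partners, of which 87 occurred once. The most frequent were astrocytes alone (45 spots), no partner (42), astrocytes with Oligo (29), Oligo alone (22) and Sst_Chodl alone (20).

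Of 44 other types in at least 50 spots, 22 were less frequent in Ndnf_HPF spots than in other spots in all 4 sections. By the same rule 4 were more frequent: Sst_Chodl, CR, Pvalb and L2_IT_RSPv. Sst_Chodl was in 22.9% of Ndnf_HPF spots and 6.05% of other spots in the ketamine-treated section, 13.6% and 4.86% in the susceptible, 20.3% and 7.40% in the resilient, and 7.61% and 1.92% in the control section. It was higher in 4 of 4 sections, with a mean of 16.1% ± 6.88 against 5.06% ± 2.33 (SD, n = 4 sections), a ratio of 3.19 and the highest among these 44 types. CR, named for Cajal-Retzius cells, early-born reelin-releasing neurons, was in 12.9% of Ndnf_HPF spots against 4.61% of other spots in the ketamine-treated section, 15.2% against 5.92% in the susceptible, 13.4% against 4.62% in the resilient and 4.35% against 2.11% in the control section, a ratio of means of 2.65. Pvalb, the fast-spiking parvalbumin interneurons, was also higher in 4 of 4 sections, at 12.2% ± 2.05 against 8.91% ± 1.98, but in spots with exactly 3 types its mean difference turned to −3.41 points. L2_IT_RSPv, a layer 2 type named for ventral retrosplenial cortex, was the remaining one of this kind, at 18.3% ± 5.08 against 12.3% ± 1.40. With 4 sections an exact sign-flip test cannot go below 0.125 for any partner.

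Partners far from the rest of the section were the rule. Of the 44 types, 33 (75%) differed by at least 1.5-fold between Ndnf_HPF spots and other spots, 4 higher and 29 lower, with a median ratio of 0.379. The higher ones besides Sst_Chodl and CR were L6b_RHP (ratio 2.41) and L6_IT_ENTl (2.10), which rested on 6 and 3 joint spots.

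Glutamatergic types with CTX (isocortex) in their names were rare in Ndnf_HPF spots. The types with RSP in their names were mixed. L2_IT_RSPv was in 67 Ndnf_HPF spots and L5_PT_RSP_ACA in 63, but L2_IT_RSP_ACA was in 6 and L3_RSP_ACA in 0. L2_IT_RSP_ACA stood at 1.36% against 9.92% of other spots (means of 4 sections), lower in 4 of 4 sections. At least 1 of the 10 CTX types was in 3 of 400 Ndnf_HPF spots. By section this was 1.43% of Ndnf_HPF spots against 21.3% of other spots in the ketamine-treated section, 1.52% against 19.0% in the susceptible, 0 spots against 22.6% in the resilient, and 1.09% against 22.2% in the control section. The intervals of the 2 kinds of spot did not overlap in any section. L6_CT_CTX, layer 6 corticothalamic neurons, was in 900 spots and L6b_CTX in 347, and neither shared a spot with Ndnf_HPF. The same held for 9 more of the 44 types: CA1, CA2_IG_FC, CA3, DG, Lamp5_Lhx6, L2_3_IT_TPE, L3_RSP_ACA, L6_IT_CTX and L6b_CT_ENT. The clusters of the Ndnf_HPF spots held few CTX types in any case. Their other spots gave an expected level of 0.242% for L6_CT_CTX, 0.197% for L6b_CTX and 0.0271% for L6_IT_CTX (means of 4 sections). L5_IT_CTX, in 2 Ndnf_HPF spots, was at 0.629% against 0.396% expected. L2_3_IT_CTX, in 1, was at 0.379% against 0.0579%. L4_5_IT_TPE_ENT, one of the 10 most frequent partners, stood at 3.59% ± 2.21 against 12.7% ± 2.54, lower in 4 of 4 sections. Against the 2.87% expected from the same clusters it was higher in 3 of 4.

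Astrocytes and Oligo went in different directions between sections, and vascular types were lower in each. Astrocytes were in 32.9% of Ndnf_HPF spots (22.1 to 45.1) and 45.8% of other spots in the ketamine-treated section, 30.3% (19.6 to 42.9) and 41.9% in the susceptible, 47.1% (39.5 to 54.8) and 43.5% in the resilient, and 51.1% (40.4 to 61.7) and 47.3% in the control section. Oligo was at 30.8% ± 9.50 against 30.9% ± 8.23, higher in 2 sections and lower in 2. Micro, the resident microglia, was in 7 Ndnf_HPF spots, at 2.18% ± 1.70 against 3.49% ± 0.721. Any of the 4 vascular types was in 5.71% of Ndnf_HPF spots against 8.83% of other spots in the ketamine-treated section, 4.55% against 7.49% in the susceptible, 5.23% against 8.81% in the resilient and 4.35% against 7.61% in the control section. For these vascular types, the value of the other spots lay within the counting interval of the Ndnf_HPF spots in each section. It lay above that interval for astrocytes in the ketamine-treated section. The same held in the resilient section for Oligo (31.5% against 17.2 to 30.3) and Micro (4.54% against 0.0147 to 3.20).

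**Figure D4:**
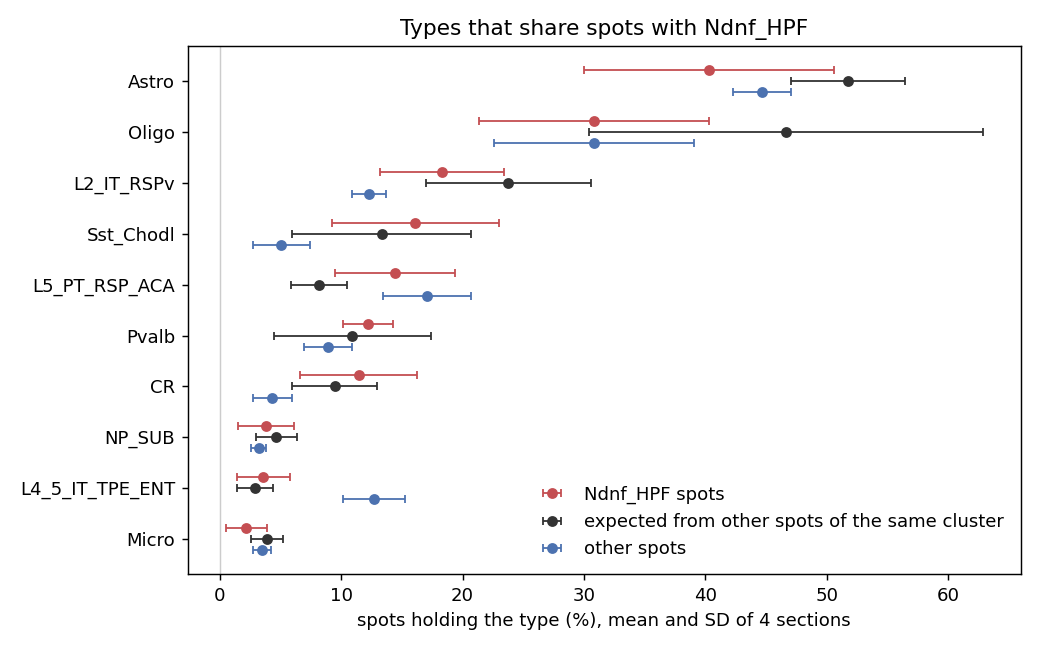
Percent of spots (x axis) that held each of the 10 most frequent partner types (y axis) among Ndnf_HPF spots (red), the level expected from the other spots of the same cluster (black) and all other spots (blue). Points are means and bars SDs of 4 sections; Sst_Chodl stands at 16.1%, 13.3% and 5.06% in that order, and L5_PT_RSP_ACA, at 14.5% against 8.15%, is above the expected level.

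Much of the partner pattern went with the clusters. When the other spots of the same cluster and section gave the expected level, Sst_Chodl in Ndnf_HPF spots was at 16.1% against 13.3% ± 7.37 expected, above it in 3 of 4 sections, and CR at 11.4% against 9.45% ± 3.50, above it in 4 of 4. Pvalb was at 12.2% against 10.9% ± 6.43 expected, above it in 3 of 4. L2_IT_RSPv turned round, at 18.3% against 23.8% ± 6.80 expected and below it in 4 of 4 sections. Oligo was also below the level of its clusters in every section, at 22.9% against 36.2% in the ketamine-treated, 34.8% against 43.8% in the susceptible, 23.3% against 36.2% in the resilient and 42.4% against 70.4% in the control section. Astrocytes were at 40.3% against 51.7% ± 4.68 expected, below in 4 of 4 sections. Of the 44 types, 2 were above the expected level in 4 of 4 sections and 15 below it.

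Besides CR, the type above the expected level in 4 of 4 sections was L5_PT_RSP_ACA, layer 5 pyramidal-tract neurons named for retrosplenial and anterior cingulate areas. It was in 14.3% of Ndnf_HPF spots against 6.30% expected in the ketamine-treated section, 7.58% against 6.62% in the susceptible, 18.6% against 11.3% in the resilient and 17.4% against 8.40% in the control section, a ratio of means of 1.77. Against all other spots it was lower in 3 of 4 sections, with a mean difference of −2.62 points. The mean difference was −11.1 points against spots with another GABAergic type and −14.7 points in spots with exactly 3 types. In cluster 1 alone, over all sections, it was in 37 of 149 Ndnf_HPF spots (24.8%, 18.1 to 32.6) and 395 of 2771 other spots (14.3%, 13.0 to 15.6), higher in 4 of 4 sections. 

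The partners changed with the cluster. In cluster 15, Oligo was in 40 of 71 Ndnf_HPF spots (56.3%, 44.05 to 68.1), astrocytes in 23 and L5_PT_RSP_ACA in 8. In cluster 1 the leading partners were astrocytes in 69 of 149 spots, Oligo in 51 (34.2%, 26.7 to 42.4, against 61.9% of its other spots), L2_IT_RSPv in 44 and Pvalb in 39. In cluster 4, Sst_Chodl was in 43 of 80 Ndnf_HPF spots (53.8%, 42.2 to 65.0), close to 48.3% of its other spots, and CR in 22 (27.5%, 18.1 to 38.6, against 21.0%). In cluster 8 astrocytes were in 23 of 46 spots, Oligo in 4 and no other type in more than 3. In cluster 11 astrocytes were in 13 of 26 spots, Oligo in 8, L2_IT_RSPv in 7, and L5_PT_RSP_ACA and Pvalb in 5 each. NP_SUB, in 5 of 71 spots in cluster 15 and 6 of 149 in cluster 1, was in none of the Ndnf_HPF spots of clusters 4, 8 and 11.

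Set beside the other GABAergic types, Ndnf_HPF shared the most spots with Sst_Chodl. Across 13 clusters, each of 20 spots or more per section, the mean rate of Sst_Chodl had a Spearman rank correlation of 0.917 with that of Ndnf_HPF, followed by L2_IT_RSPv at 0.802 and Oligo at 0.535. These describe clusters of the same sections, which share spots. By Pearson correlation the values were 0.306, 0.191 and 0.330, and the highest of the 66 other types were L2_IT_ENTm at 0.737, L5_PPP at 0.715 and NP_SUB at 0.696, the first an entorhinal and the last a subicular type by name. L2_IT_ENTm and L5_PPP are named here after their values were seen, and shared 2 and 4 spots with Ndnf_HPF. Without cluster 15 the Spearman values were 0.900 for Sst_Chodl, 0.312 for L2_IT_ENTm, 0.281 for L5_PPP and 0.384 for NP_SUB. Sst_Chodl averaged 44.4% of cluster 4 spots and 11.2% of cluster 15 spots, where Ndnf_HPF averaged 5.81% and 32.4%. Of the 802 Sst_Chodl spots, 67 held Ndnf_HPF (8.35%). Pvalb shared 49 of its 1346 spots (3.64%). Meis2, a GABAergic type named for a transcription factor, shared 3 of 520 although both types occurred in clusters 1, 4, 8, 11 and 15. Meis2 was below the expected level in 4 of 4 sections (1.11% ± 1.44 against 5.25% ± 4.88).

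The less frequent interneuron types gave too few joint spots to be set against the 2.70% of all spots that held Ndnf_HPF. Lamp5, the type that in mouse cortex holds most neurogliaform cells, was in 38 spots and shared 0 with Ndnf_HPF, as did Lamp5_Lhx6 (55 spots) and Vip (30). Sncg shared 2 of 130 (1.54%), Sst 1 of 94 (1.06%), Pax6 1 of 27 (3.70%) and Pvalb_Vipr2 3 of 148 (2.03%). At least 1 of the other 10 GABAergic types was in 32.9% of Ndnf_HPF spots (22.1 to 45.1) against 18.7% of other spots in the ketamine-treated section, 27.3% (17.03 to 39.6) against 21.4% in the susceptible, 32.6% (25.6 to 40.1) against 21.9% in the resilient and 25% (16.6 to 35.1) against 18.8% in the control section. The value was higher in 4 of 4 sections, beyond the counting intervals in the ketamine-treated and resilient sections. Sst_Chodl alone was higher by 16.8 points in the ketamine-treated, 8.78 in the susceptible, 12.9 in the resilient and 5.69 in the control section. The difference of the group is therefore no sign of a link with interneuron types in general. A level expected from the clusters was not computed for the 10 types together.

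**Figure D5:**
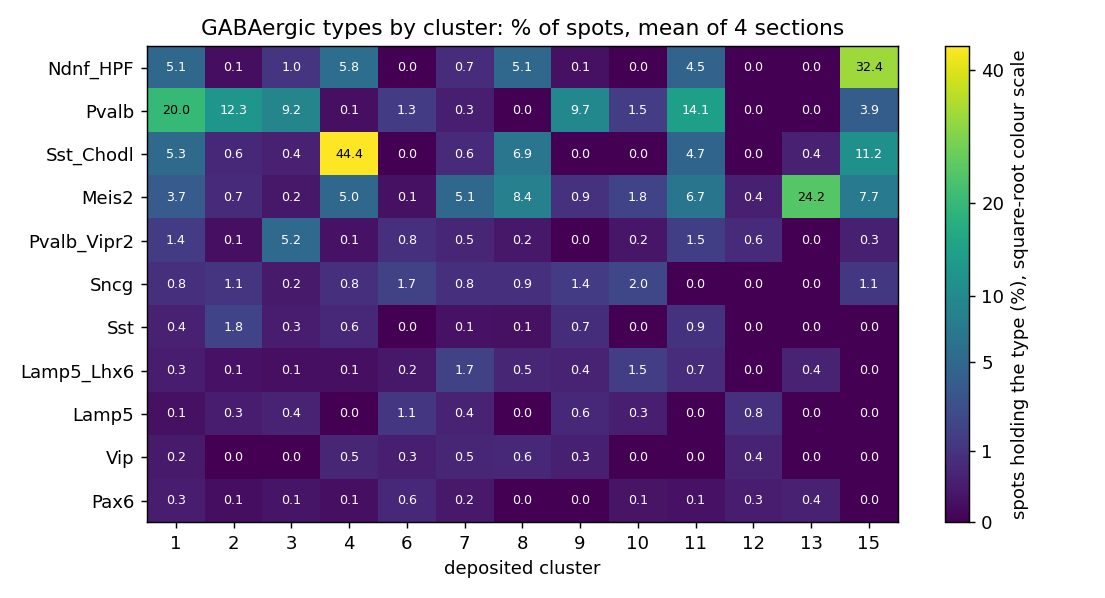
Percent of spots holding each GABAergic type (rows, Ndnf_HPF at the top) in the same 13 clusters (columns), as the mean of 4 sections, printed in each cell and coloured on a square-root scale. Ndnf_HPF peaks at 32.4% in cluster 15, Sst_Chodl at 44.4% in cluster 4 and Meis2 at 24.2% in cluster 13, where Ndnf_HPF is 0.

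No header names a neuron type of the thalamus, striatum, hypothalamus, midbrain or cerebellum, and the tables hold no spot positions. Which regions the Ndnf_HPF spots of clusters 1, 4, 8, 11 and 15 came from, and what part the list of reference types had in where the name was given, was not tested.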

How the data were processed

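The authors deposited, for each of 4 sections, a table of spots that pairs each with its cluster and with a fraction for each of 67 cell types and for unknown, per the file headers. The genome build was mm10, per the submitters' processing notes; the labels and headers name no aligner, clustering method, or method and reference behind the fractions. Cluster numbers were taken as 1 clustering of all sections. The t-SNE coordinates were not used.

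A spot held a type at any fraction above 0. Shares of spots were given with exact Clopper-Pearson 95% intervals, and a count of 0 with a limit of 3 spots; both cover counting error only, and neighbouring spots are not independent. Ratios of sections have log-scale counting intervals. Partner types were compared between Ndnf_HPF spots and other spots of the same section, and with the level expected from other spots of the same cluster. Types named were the 10 most frequent partners, the 5 highest and lowest by ratio among types in at least 50 spots (11 tied at 0), hippocampal and GABAergic types, and the 3 with the most similar cluster profile. The members and lists were chosen with earlier results of these data known. The cluster-expected level and the equal cluster weights were tried on simulated data with made-up rates and independent spots. Competition between the shares of a spot was not simulated. Python 3.11.15, pandas 2.3.3, numpy 2.4.6, scipy 1.17.1 and matplotlib 3.10.9 were used.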

Additional observations from a re-analysis of the deposited data

Results flagged for a closer look

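Partner differences that ran in opposite directions in 2 sections, by at least 3 percentage points in each, were looked at again. Astrocytes in Ndnf_HPF spots minus other spots differed by −12.9 points in the ketamine-treated and −11.6 points in the susceptible section, against 3.54 points in the resilient and 3.74 points in the control section. Oligo differed by 9.35 points in the susceptible and −8.25 points in the resilient section. L5_PT_RSP_ACA differed by −3.15 points in the ketamine-treated, −8.47 points in the susceptible and −3.21 points in the resilient section, against 4.35 points in the control section. With 1 section per group none of these differences between sections was tested. Against the level expected from the same clusters, astrocytes and Oligo were below it and L5_PT_RSP_ACA above it in all 4 sections.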

How the results depend on the processing

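Values below are for the share of spots holding Ndnf_HPF unless stated. Measured as the mean deposited share, it was 0.916% in the ketamine-treated, 0.771% in the susceptible, 1.76% in the resilient and 0.947% in the control section. As the share of spots led by the type, it was 0.777%, 0.523%, 1.52% and 0.696% in those sections, with ratios of 1.49 for ketamine-treated over susceptible, 1.11 for ketamine-treated over control, 0.345 for susceptible over resilient and 2.18 for resilient over control. With equal cluster weights it was 2.60% in the ketamine-treated and 3.52% in the resilient section, and the ratios were 0.741 for ketamine-treated over resilient, 1.18 for ketamine-treated over control, 0.690 for susceptible over resilient and 1.10 for susceptible over control. The 2 ratios to the resilient section were then no longer past 1.5-fold. Alternatives chosen after seeing the data left out clusters 4 and 8, left out cluster 15, or kept spots with exactly 3 types. Without clusters 4 and 8 the resilient section was at 2.56%, the susceptible to resilient ratio was 0.623 and the resilient to control ratio 1.02. Without cluster 15 the control section was at 1.70% and the resilient to control ratio was 2.16. Ratios within cluster 10 could not be computed, since it held 0 Ndnf_HPF spots in every section.

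Of the 10 most frequent partners, 4 were higher and 1 lower in all 4 sections. The number higher was 2 against the cluster-expected level, 2 with at least 20% of a spot required and 2 in spots with exactly 3 types. The number lower was 3 against the cluster-expected level, 2 against spots with another GABAergic type and 3 in spots with exactly 3 types, and between 1 and 2 when each section was left out in turn. Mean differences over sections that changed sign against the cluster-expected level were L2_IT_RSPv at −5.46, L5_PT_RSP_ACA at 6.31, NP_SUB at −0.871 and L4_5_IT_TPE_ENT at 0.719 points. Against spots with another GABAergic type these were Oligo at 0.847, NP_SUB at −0.187 and Micro at 0.0762 points. In spots with exactly 3 types they were Oligo at 2.19, Pvalb at −3.41 and NP_SUB at −0.531 points. With each section left out in turn, Oligo lay between −3.14 and 2.72 and NP_SUB between −0.511 and 1.42 points. The causes were not tested. With 0 Ndnf_HPF spots in cluster 10, no alternative could turn the sign of its difference from the rest. No paired analysis was possible because each group has 1 section. Sequencing depth is unknown, and shares under about 10% of a spot cannot be seen.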

Other observations

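Smooth muscle cells (SMC), the contractile cells of vessel walls, were chosen here after their values were seen. In cluster 1 they were in 5 of 149 Ndnf_HPF spots (3.36%, exact 95% interval 1.10 to 7.66) and 33 of 2771 other spots (1.19%, 0.821 to 1.67), higher in 4 of 4 sections. Over all clusters they were in 6 Ndnf_HPF spots, at 1.80% against 1.55% of other spots (means of 4 sections), higher in 2 sections and lower in 2.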
